A study of Homo sapiens with 18 samples.

Results

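The genes described here are 38 human genes of base excision repair (BER, 21 genes) and nucleotide excision repair (NER, 17 genes), picked by symbol from the 19289 symbols in the table. They were measured by TempO-Seq, a targeted RNA-seq assay in which a pair of detector oligos is ligated on each RNA and counted, in the TNBC cell lines BT549 and Hs578T, labelled mesenchymal-like by the study, and SUM149PT, labelled basal-like. Cells of each established line were transfected for 72 h with 50 nM of siASAP1, a SMARTpool siRNA against the Arf GTPase-activating gene ASAP1, or with siCtrl, which the methods describe as a pool of kinase siRNAs. There were 3 libraries per line and siRNA, 18 in all. All siASAP1 libraries come from the same siRNA pool, so an effect of losing ASAP1 and an effect of these siRNAs on other RNAs cannot be told apart.

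BER removes small damaged bases. A DNA glycosylase cuts out the base, the AP endonuclease APEX1 nicks the backbone at the empty site, PARP1 and PARP2 sense the break, and XRCC1, POLB, FEN1 and the ligases LIG1 and LIG3 fill and seal the gap. NER removes lesions that bend the helix: XPC finds them together with RAD23B and CETN2, DDB1 and DDB2 help at ultraviolet lesions, ERCC6 and ERCC8 act at stalled RNA polymerase, TFIIH opens the DNA, and XPA, ERCC1 with ERCC4, and ERCC5 verify and cut. CETN2 is also a component of centrioles, and APEX1 is also known as a redox regulator of transcription factors.

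After siASAP1, APEX1 and CETN2 were lower than in siCtrl in all 3 lines, whereas the other probes of their pathways had median Log2 FC of −0.23 (BER) and −0.10 (NER) over the 18 libraries. Across the 18 libraries CETN2 fell by 1.80 and APEX1 by 1.20 on the log2 scale. A probe for the uracil glycosylase SMUG1 also fell, by 1.15, but a second probe for the same gene did not pass the test. UNG, PARP2 and DDB2 met the limits for a lower level in SUM149PT alone, but none of them passed the test of a difference between lines. The calls of UNG and DDB2 were lost with most single libraries left out, and DDB2 came close to the Log2 FC limit in Hs578T. All 14 genes of an S phase list also had lower values in SUM149PT, and the part of proliferation in these calls was not tested.

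The windows upstream of APEX1 and CETN2 are shown because these members moved together and because each start site lies close to that of a gene on the opposite strand. Each run holds the 250 bases before the RefSeq start site on GRCh38.p14, read on the strand of the gene, with E-boxes (CACGTG) and CCAAT boxes (CCAAT or its reverse complement ATTGG) in capitals. The APEX1 window is chr14:20454976-20455225 on the plus strand and the CETN2 window is chrX:152830758-152831007 on the minus strand.
APEX1: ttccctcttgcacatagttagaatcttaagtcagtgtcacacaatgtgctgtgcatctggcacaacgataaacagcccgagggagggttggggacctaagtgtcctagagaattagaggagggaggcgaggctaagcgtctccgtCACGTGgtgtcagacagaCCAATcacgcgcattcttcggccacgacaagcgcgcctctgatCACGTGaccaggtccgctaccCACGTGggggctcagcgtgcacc
CETN2: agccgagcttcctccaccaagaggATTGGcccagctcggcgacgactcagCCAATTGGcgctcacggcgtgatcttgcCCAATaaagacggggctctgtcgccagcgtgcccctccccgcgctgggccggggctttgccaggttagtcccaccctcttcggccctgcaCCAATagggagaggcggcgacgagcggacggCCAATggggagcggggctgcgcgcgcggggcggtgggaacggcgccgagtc
The APEX1 window held 3 E-boxes, beginning 105, 44 and 23 bases before the start, and 1 CCAAT box. In the CETN2 window there were 6 CCAAT matches and 0 E-boxes, and a forward and a reverse CCAAT match overlapped in the stretch that begins 200 bases before the start. Of 27305 RefSeq promoter windows of this length, 6.49% held an E-box on either strand and 0.0879% held 3 or more. CCAAT was present in 33% of windows and 6 or more matches in 0.114%. The cutoffs of 3 and 6 are the counts found in the APEX1 and CETN2 windows, and these windows were picked from results of these data. The shares at these cutoffs are therefore description only, and enrichment was not tested. Among the 35 members with a window, 22.9% held an E-box and 42.9% a CCAAT box. The ETS site CCGGAAG, the TATA box TATAAA and the CRE half-site TGACGT had 0 matches in both windows. These matches describe the letters and not binding.

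The 38 genes were read by 51 probes. Probe sequences were not used here, so the exon that a probe covers was not determined, and levels are compared between libraries and not between genes. Libraries held 4.63 to 12.5 M reads (median 6.63 M). Values below are normalized counts, that is reads divided by the size factor of the library, and Log2 FC is the mean difference of log2(normalized count + 1), siASAP1 minus siCtrl. Probes with a mean normalized count under 10 in a comparison were left out. Within a line a probe is said to meet the DEG limits when the unadjusted limma p was under 0.05 and the absolute Log2 FC over 1, the limits of the study. In the fit over the 18 libraries, with the line as covariate, a probe is called at an adjusted p under 0.05. The labels do not say what separates replicates, so p-values measure the spread between these libraries.

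ASAP1 itself stood at 36.1% of the siCtrl mean in SUM149PT, 49.9% in Hs578T and 62.3% in BT549. In SUM149PT the siCtrl libraries read 1087, 189 and 1314 and the siASAP1 libraries 282, 468 and 184, so the library labelled siCtrl replicate 2 lay among the siASAP1 libraries for this gene. ASAP1 in 7 of 9 siASAP1 libraries was below every siCtrl library of its line (exact two-sided permutation within lines p = 0.0152). Its Log2 FC over the 18 libraries was −0.96 ± 0.31 (SE, limma adjusted p = 0.127). Among markers of the lines, EPCAM ranged from 18700 to 36700 in SUM149PT and from 0 to 77.8 in the other lines, and the VIM and SPARC probes were higher in every BT549 and Hs578T library than in any SUM149PT library. CDH2, also listed as mesenchymal, did not follow the labels: it read 253 to 691 in BT549, 1430 to 2320 in SUM149PT and 3220 to 5540 in Hs578T. The basal keratin KRT17 read 647 to 5510 in SUM149PT and 0 to 1.13 in the other lines. CDH1 read 87.9 to 263 in SUM149PT and KRT5 read 0 to 64.1, and both were at 0 in the other lines. The basal keratin KRT14 and the mesenchymal factor ZEB1 were at or near 0 in every line, and an ESR1 probe read 24.3 to 191 in SUM149PT.

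**Figure D1:**
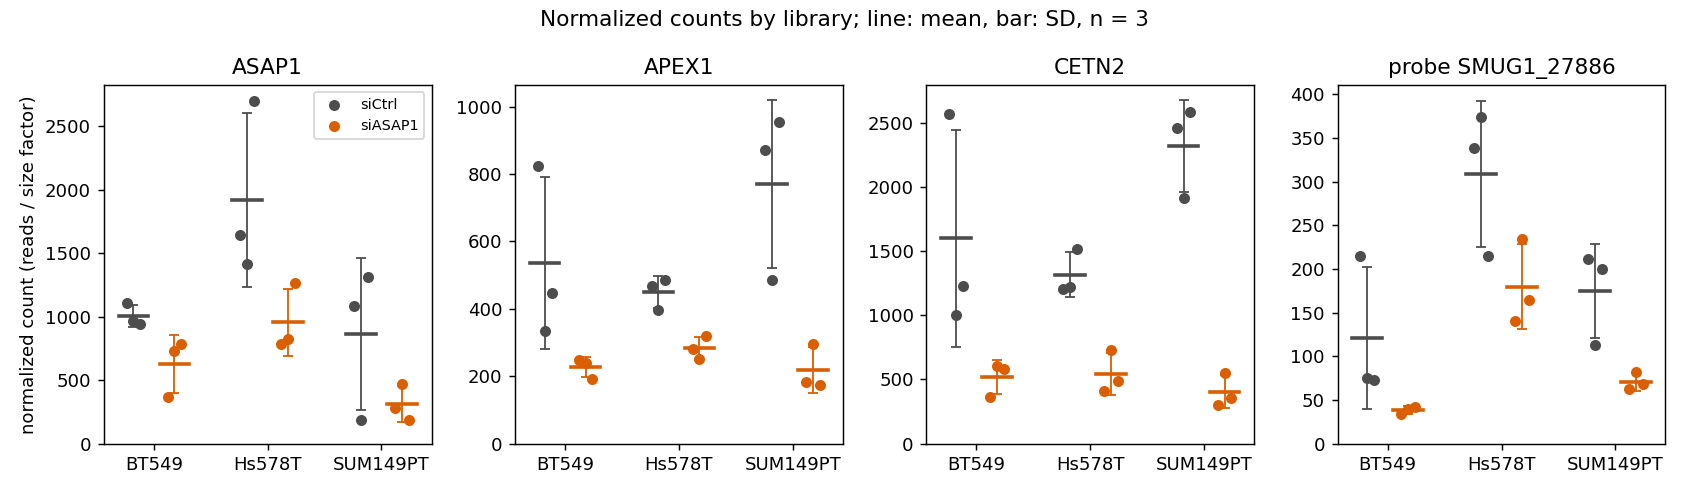
Normalized counts (vertical axis, linear) of ASAP1, APEX1, CETN2 and probe SMUG1_27886 in each of the 18 libraries, by cell line (horizontal axis) and siRNA (colour); horizontal bars are means and vertical bars SD of 3 libraries. APEX1 and CETN2 show no overlap between siASAP1 and siCtrl in any line, while ASAP1 overlaps in SUM149PT.

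APEX1 is the main endonuclease of BER at abasic sites. In BT549 its normalized counts were 248, 241 and 192.5 after siASAP1 and 825, 336 and 448 after siCtrl. Hs578T gave 279.9, 251.5 and 319 after siASAP1 and 469, 396.5 and 485 after siCtrl. SUM149PT gave 184, 296 and 175 after siASAP1 and 872, 486 and 954 after siCtrl. The groups did not overlap in any line, and the siCtrl libraries spread more widely than the siASAP1 libraries in BT549 and SUM149PT. The siASAP1 mean was 42.4%, 63.0% and 28.3% of the siCtrl mean in BT549, Hs578T and SUM149PT. The largest change was in SUM149PT, with a Log2 FC of −1.80 ± 0.45 (SE), followed by BT549 with −1.14 ± 0.43 and Hs578T with −0.67 ± 0.27, so that SUM149PT and BT549 met the DEG limits. In Hs578T the p was under its limit but the change was not large enough. Over the 18 libraries the Log2 FC was −1.20 ± 0.23 (limma adjusted p = 0.00925). In these bulk lysates fewer cells with the RNA and less RNA per cell cannot be told apart. All 9 siASAP1 libraries were below every siCtrl library of their line (exact two-sided permutation p = 0.00025, the smallest of 8000 relabellings within lines). APEX1 and CETN2 were singled out with earlier results of these data known, so the p-values of either gene are not independent support. In BT549 the APEX1 value rested partly on siCtrl replicate 1, and without it the Log2 FC was −0.78. The limits in BT549 were also missed without siASAP1 replicate 2 (−1.19), siASAP1 replicate 3 (−1.03) or siCtrl replicate 3 (−1.22). Without SUM149PT siCtrl replicate 2, the library with little ASAP1, APEX1 in SUM149PT was at −2.10.

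CETN2 encodes centrin 2, a calcium-binding partner of XPC in lesion recognition. BT549 read 364, 604 and 581 after siASAP1 and 2567, 1005 and 1224 after siCtrl. Counts in Hs578T were 414, 726 and 489 after siASAP1 and 1206, 1223 and 1517 after siCtrl. SUM149PT read 304, 549 and 359 after siASAP1 and 2461, 1912 and 2578 after siCtrl. Again there was no overlap in any line. The siASAP1 mean was 32.3%, 41.3% and 17.4% of the siCtrl mean in BT549, Hs578T and SUM149PT. CETN2 met the DEG limits in each line, at −2.55 ± 0.39 (Log2 FC, SE) for SUM149PT, −1.54 ± 0.44 for BT549 and −1.31 ± 0.29 for Hs578T, and leaving out any single library did not lose a call. The Log2 FC over the 18 libraries was −1.80 ± 0.23 (limma adjusted p = 0.000888), and all 9 siASAP1 libraries lay below the siCtrl libraries of their line (exact two-sided permutation p = 0.00025, the smallest possible). The test of a difference between lines gave a limma adjusted p of 0.831 for CETN2 and 0.908 for APEX1. Without SUM149PT siCtrl replicate 2 the Log2 FC of CETN2 in SUM149PT was −2.68. The limma adjusted p was then 0.0489, beside 0.176 with all libraries and 0.322 to 0.973 with another library left out. That omission also raised the share of all probes meeting the limits from 9.56% to 23.4%. Without BT549 siCtrl replicate 1 the Log2 FC of CETN2 was −1.14 in BT549.

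Within BER, the median Log2 FC of the other probes over the 18 libraries was −0.23, and 1 of 21 of them was lower than APEX1. That probe was PARP2_4940, with −1.24 ± 0.81 at very few reads. In single lines, 2 of 21 other BER probes were lower than APEX1 in SUM149PT, 2 of 19 in Hs578T and 1 of 20 in BT549. Within NER the median of the other probes was −0.10, and 0 of 15 were lower than CETN2 over the 18 libraries, in Hs578T or in SUM149PT. In BT549 the low probe ERCC8_2220 (−1.61 ± 1.29) was lower than CETN2. CETN2 and APEX1 thus stood at the lower end of their pathways, but whether either differed from the other members was not tested. Both were singled out with earlier results of these data known, so these ranks are not independent support.

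**Figure D2:**
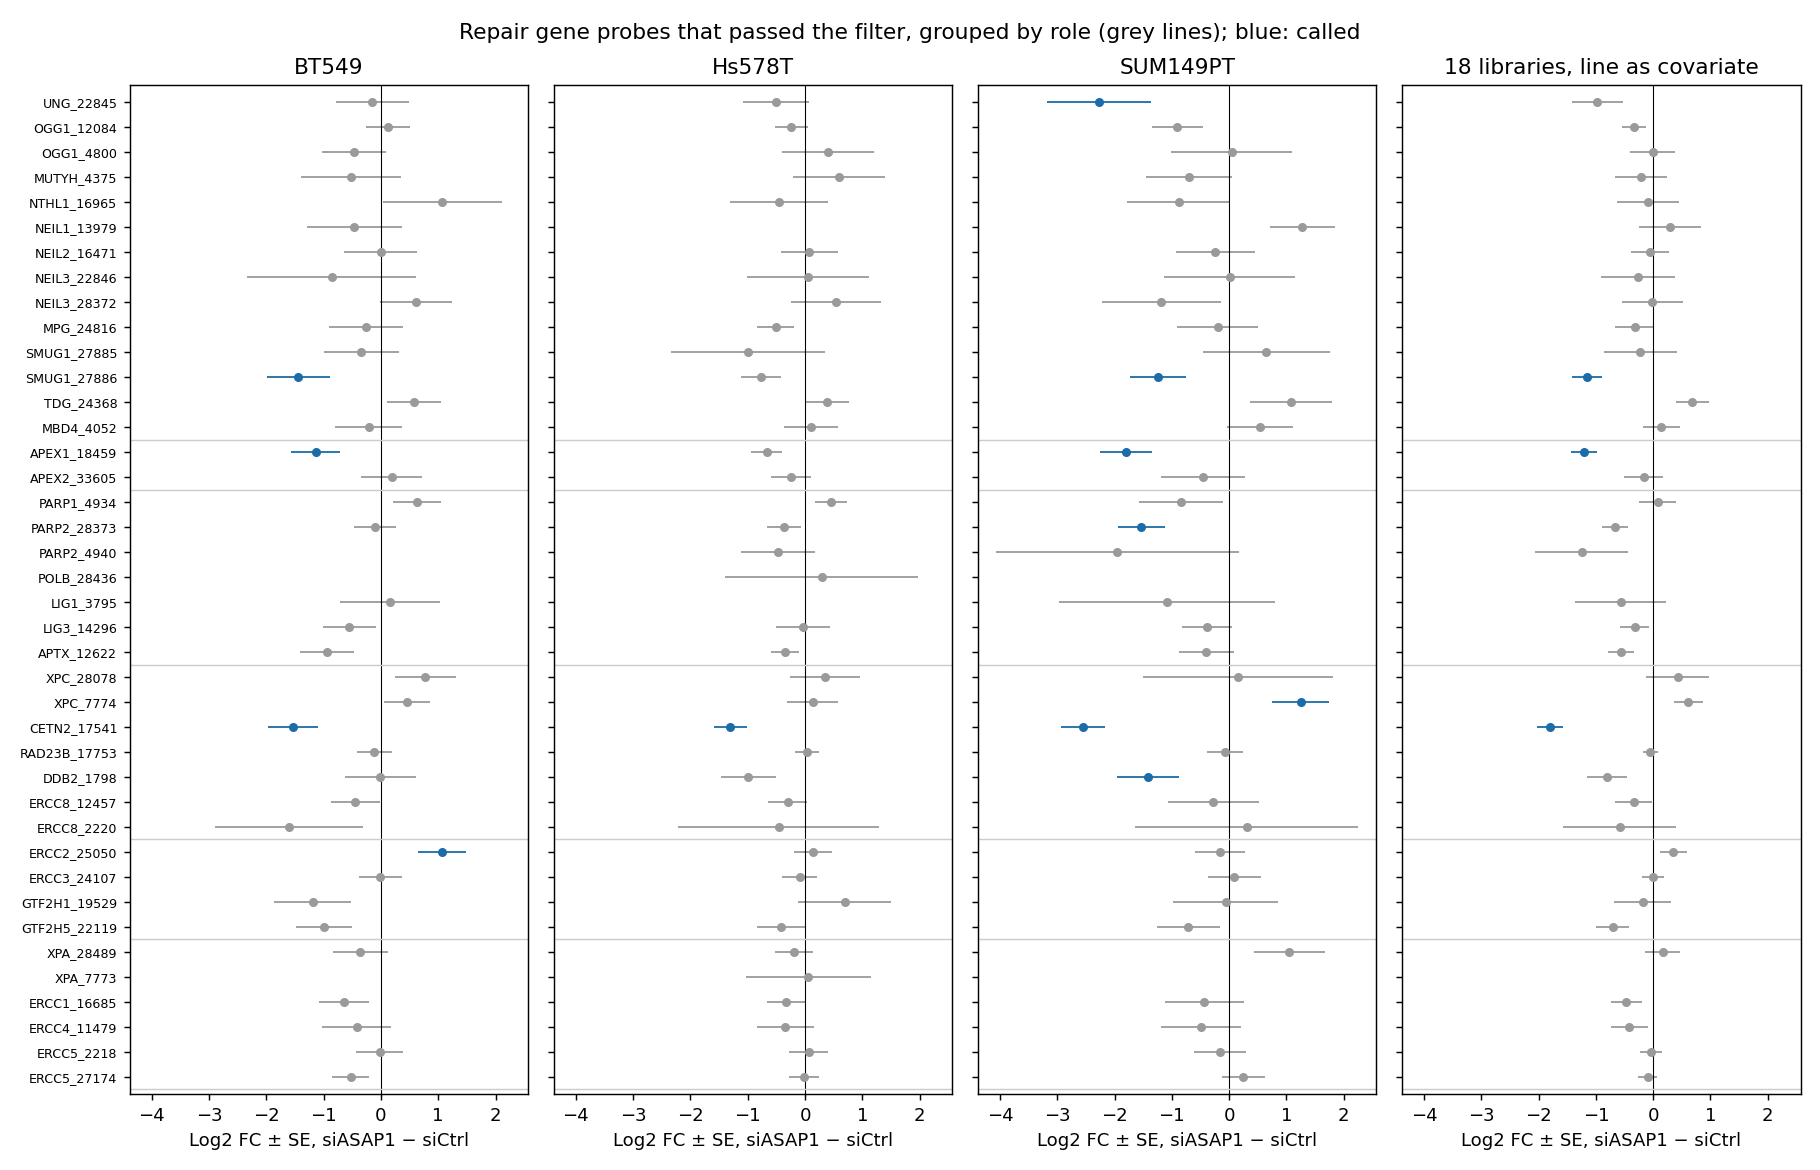
Log2 FC ± SE (horizontal axis, siASAP1 minus siCtrl) of every repair gene probe that passed the filter, in rows grouped by role, for BT549, Hs578T, SUM149PT and the 18 libraries with the line as covariate. Blue points met the DEG limits in a line or had an adjusted p under 0.05 over the 18 libraries; CETN2 is blue in all 4 panels, and most members sit between −1 and 1.

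Of the 37 member probes tested in BT549, 3 met the DEG limits for a lower level (CETN2, APEX1 and SMUG1_27886), beside 3.69% of all probes, and 1 for a higher level (ERCC2_25050), beside 3.28%. In Hs578T 1 of 38 did so, CETN2 at a lower level, beside 1.44% of all probes, and 0 at a higher level, beside 1.34%. SUM149PT had 6 of 38 at a lower level (CETN2, APEX1, PARP2_28373, DDB2, SMUG1_27886 and UNG), beside 4.29%, and 1 at a higher level (XPC_7774), beside 5.27%. None of these had a limma adjusted p under 0.05 within a line, where the smallest were 0.485, 0.711 and 0.176. The same held for all probes, of which 0 passed in each line, with smallest values of 0.0543, 0.525 and 0.0668. At an unadjusted limma p under 0.05 there were 4 of 37, 2 of 38 and 7 of 38 member probes. Among all probes there were 754 of 9666, 502 of 9500 and 1025 of 10078. Over the 18 libraries 3 of 38 were called lower (CETN2, APEX1 and SMUG1_27886), beside 1.06% of all probes, and 0 higher, beside 0.678%. In that fit 10 of 38 had an unadjusted limma p under 0.05, beside 1660 of all 10475 probes. The counts within a line moved with single libraries, for the members and for all probes. With all libraries, 18.4% of member probes in SUM149PT met the limits in either direction, beside 9.56% of all probes. Without siCtrl replicate 2 it was 9 of 37 (24.3%), beside 23.4%. Leaving out siASAP1 replicate 3 gave 3 (7.89%, beside 5.69%), siCtrl replicate 1 gave 3 (7.69%, beside 4.95%), siASAP1 replicate 1 gave 4 (10.5%, beside 5.17%) and siCtrl replicate 3 gave 4 (10.5%, beside 5.87%). In BT549 the share was 10.8%, beside 6.97%, and it became 18.9% (7, beside 22.5%) without siASAP1 replicate 1, 5.41% (2) without siASAP1 replicate 2 (beside 4.26%) or 3 (beside 3.44%), and 2.7% (1, CETN2, beside 5.37%) without siCtrl replicate 1. Hs578T had 2 members (5.26%, beside 4.97%) without siASAP1 replicate 2 and 3 (7.89%, beside 6.67%) without siCtrl replicate 3. Over the 18 libraries 2 or 3 members (5.26% or 7.89%) were called with each library left out, beside 0.942% to 1.97% of all probes.

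Counted by overlap alone, 5 member probes in BT549 had all siASAP1 libraries below all siCtrl libraries, beside 6.51% of all probes, and 2 had them above, beside 7.35%. Hs578T had 4 below, beside 5.78%, and 1 above, beside 6.31%. SUM149PT had 7 below, beside 8.41%, and 2 above, beside 8.87%. APEX1 and CETN2 were below in every line. The others below were SMUG1_27886, GTF2H1 and ERCC5_27174 in BT549, MPG and APTX in Hs578T, and UNG, OGG1_12084, SMUG1_27886, PARP2_28373 and DDB2 in SUM149PT. Those above were XPC_28078 and ERCC2_25050 in BT549, PARP1 in Hs578T, and NEIL1 and XPC_7774 in SUM149PT.

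Member probes had a median Log2 FC of −0.26 for BT549, −0.15 for Hs578T, −0.33 for SUM149PT and −0.22 over the 18 libraries, beside medians over all probes of −0.00, 0.01, 0.09 and 0.02. Scaling by total reads moved the median of all probes to 0.06, 0.12, 0.30 and 0.15 and that of the members to −0.20, −0.03, −0.06 and −0.10. APEX1 and CETN2 kept their direction under both scalings. In all, 30 of 38 member probes were lower than in siCtrl and 8 higher over the 18 libraries, beside 5059 lower and 5416 higher of all 10475 probes.

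DNA glycosylases begin BER, each at its own kinds of damaged base. Over the 18 libraries 11 of 14 glycosylase probes were lower and 1 was called, SMUG1_27886. SMUG1 removes uracil and some oxidized pyrimidines. In BT549 this probe read 33.8, 39.65 and 42.0 after siASAP1 and 215, 75.5 and 73.0 after siCtrl. Hs578T read 140.5, 235 and 164 after siASAP1 and 338, 374.5 and 215 after siCtrl. SUM149PT read 62.2, 82.05 and 68.3 after siASAP1 and 212, 113 and 199.8 after siCtrl. The groups overlapped only in Hs578T. This gave −1.44 ± 0.55 (Log2 FC, SE) for BT549, −1.25 ± 0.49 for SUM149PT, −0.77 ± 0.35 for Hs578T and −1.15 ± 0.26 over the 18 libraries (limma adjusted p = 0.0234). That adjusted p became 0.0536 without SUM149PT siCtrl replicate 1 and 0.0506 without Hs578T siASAP1 replicate 1, and in BT549 the limits were missed without siCtrl replicate 1 (−0.94). In SUM149PT they were missed without siASAP1 replicate 1 (−1.16) or 3 (−1.23) and without siCtrl replicate 1 (−1.08) or 3 (−1.12). The second SMUG1 probe, SMUG1_27885, had −0.23 ± 0.64 over the 18 libraries.

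UNG, the main nuclear and mitochondrial uracil glycosylase, met the DEG limits only in SUM149PT. There it read 22.5, 25.6 and 2.63 after siASAP1 and 68.65, 60.1 and 59.1 after siCtrl, without overlap. In BT549 it read 20.4, 37.8 and 22.8 after siASAP1 and 39.9, 17.0 and 35.8 after siCtrl. Hs578T read 20.4, 31.8 and 21.3 after siASAP1 and 44.7, 17.95 and 51.2 after siCtrl. Both of these lines overlapped. Log2 FC was −2.27 ± 0.91 (SE) in SUM149PT, −0.15 ± 0.64 in BT549 and −0.51 ± 0.58 in Hs578T. Without siASAP1 replicate 3 the value in SUM149PT was −1.34, and the limits were also missed without siCtrl replicate 1 (−2.21), 2 (−2.30) or 3 (−2.31). TDG, which acts on mispaired thymine and oxidized methylcytosine, had the highest Log2 FC of the members over the 18 libraries, 0.68 ± 0.29 (limma adjusted p = 0.24).

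Among the genes that sense breaks and close the gap, 5 of 6 tested probes were lower over the 18 libraries and 0 were called. PARP2, a poly(ADP-ribose) polymerase activated by DNA breaks, met the limits in SUM149PT with probe PARP2_28373. There it read 396, 633 and 359 after siASAP1 and 1596, 957.5 and 1429 after siCtrl. BT549 read 618, 762 and 621 after siASAP1 and 976, 640.1 and 584 after siCtrl. Hs578T read 921, 907 and 963 after siASAP1 and 1112, 889 and 1774 after siCtrl. Only SUM149PT showed no overlap. Its Log2 FC was −1.53 ± 0.41 (SE) in SUM149PT, −0.11 ± 0.36 in BT549 and −0.38 ± 0.30 in Hs578T, and the call in SUM149PT stayed with each library left out. Of the members this probe had the smallest p for a difference between lines, with a limma adjusted p = 0.595. No member was called for such a difference, beside 0.00955% of all probes. An unadjusted limma p under 0.05 was seen for 1 member, beside 652 of all 10475 probes.

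PARP1, the main break sensor, was above all siCtrl libraries in Hs578T (Log2 FC 0.45 ± 0.27), while its values were 0.63 ± 0.41 in BT549 and −0.84 ± 0.73 in SUM149PT, none of which met the limits. APTX, which clears abortive ligation ends, had −0.57 ± 0.23 over the 18 libraries (limma adjusted p = 0.223). XRCC1, POLB and FEN1 did not pass the filter over the 18 libraries. The FEN1 probe and the probe POLB_5242 had 0 reads in every library, so these probes carry no information on the level of those genes.

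Of the 7 probes for lesion recognition, 5 were lower over the 18 libraries. DDB2, the ultraviolet lesion sensor and a known p53 target, read 64.8, 87.2 and 35.5 in SUM149PT after siASAP1 and 209, 121 and 155 after siCtrl, without overlap. In Hs578T it read 63.5, 144.5 and 41.6 after siASAP1 and 166, 165 and 111 after siCtrl. BT549 read 46.2, 95.3 and 73.0 after siASAP1 and 136, 81.1 and 29.5 after siCtrl. The groups overlapped in these lines. Log2 FC was −1.41 ± 0.54 (SE) in SUM149PT, −0.99 ± 0.48 in Hs578T and −0.01 ± 0.62 in BT549. The limits in SUM149PT were missed without siASAP1 replicate 1 (−1.49) or 3 (−1.06) and without siCtrl replicate 1 (−1.21) or 3 (−1.43).

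XPC, the partner of CETN2, was not called lower in any comparison. Probe XPC_7774 read 194.5, 103 and 152 in SUM149PT after siASAP1 and 70.1, 62.9 and 49.55 after siCtrl, without overlap. In BT549 it read 164, 200.1 and 241 after siASAP1 and 125, 168.5 and 144 after siCtrl. Hs578T read 60.1, 48.6 and 86.4 after siASAP1 and 38.0, 75.1 and 67.0 after siCtrl. Log2 FC was 1.25 ± 0.50 (SE) in SUM149PT, 0.46 ± 0.40 in BT549, 0.13 ± 0.44 in Hs578T and 0.61 ± 0.25 over the 18 libraries (limma adjusted p = 0.221). The limits in SUM149PT were missed without siASAP1 replicate 1 (1.04) or 3 (1.22) and without siCtrl replicate 1 (1.36) or 3 (1.11). A second XPC probe, XPC_28078, had 0.43 ± 0.55 over the 18 libraries. RAD23B, the other partner of XPC, read 4109 to 7252 in all libraries and had −0.05 ± 0.13, the smallest SE of the members. DDB1 and ERCC6 did not pass the filter.

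TFIIH and the incision genes held 1 member that met the limits. ERCC2, a helicase of TFIIH, read 501, 628 and 1108 in BT549 after siASAP1 and 262, 337 and 426.5 after siCtrl. Hs578T read 249, 262 and 228 after siASAP1 and 182, 182 and 337 after siCtrl. SUM149PT read 148, 239.7 and 190.5 after siASAP1 and 187, 185 and 268.5 after siCtrl. Only BT549 was free of overlap. The Log2 FC of ERCC2 was 1.07 ± 0.42 (SE) there, −0.15 ± 0.44 in SUM149PT and 0.14 ± 0.34 in Hs578T. The limits in BT549 were missed without siASAP1 replicate 2 (1.15) or 3 (0.74) and without siCtrl replicate 1 (0.89) or 2 (1.07). The other TFIIH helicase, ERCC3, had −0.01 ± 0.20 over the 18 libraries, and GTF2H5, a small TFIIH subunit, had −0.71 ± 0.29 (limma adjusted p = 0.216). GTF2H3 and GTF2H4 did not pass the filter. With no filter the probe GTF2H3_14737 met the limits in BT549 at −2.50 ± 1.10. The 5 probes of XPA, ERCC1, ERCC4 and ERCC5 ran from −0.47 to 0.17 over the 18 libraries, and none met the limits in a line.

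**Figure D3:**
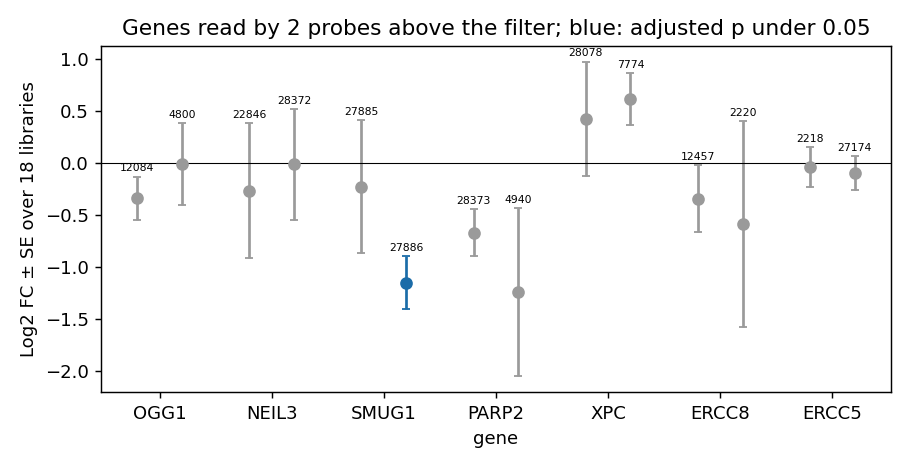
Log2 FC ± SE over the 18 libraries (vertical axis) for the 7 genes (horizontal axis) with 2 probes above the filter, each point labelled with its probe number. The SMUG1 probes stand at −0.23 and −1.15, with only the latter at an adjusted p under 0.05, while the ERCC5 probes both lie near 0.

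The paralogs of the leading members gave mixed values. APEX2, the second AP endonuclease, had −0.17 ± 0.34 over the 18 libraries. CETN3, a centrin of the centriole, was read by probe CETN3_27006 at −0.96 ± 0.29 (limma adjusted p = 0.0958) and by probe CETN3_28289 at 0.16 ± 0.48. Probe CETN3_27006 met the limits in SUM149PT with −1.29. CETN1 had 0 reads. Of the members, 13 had a gene on the opposite strand starting within 1000 bases. For APEX1 this was OSGEP, 414 bases away, a subunit of the tRNA-modifying KEOPS complex, whose Log2 FC was −1.69 ± 0.78 for SUM149PT, −0.34 ± 0.56 for Hs578T and 0.85 ± 0.59 for BT549. For CETN2 it was NSDHL, 306 bases away, an enzyme of cholesterol synthesis, which was read at most 33.0 per library and had −0.52 ± 0.73 over the 18 libraries. Neither neighbour met the limits in a line.

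Other genes of the pathways were read from lists chosen by name. Of 14 further BER genes, 9 passed the filter over the 18 libraries, 0 were called and the median Log2 FC was −0.02. Of 20 further NER genes, 17 passed, 0 were called and the median was −0.19. Among all 10475 probes 1.74% were called in that fit, so for lists this short a count of 0 lies near that share. Among the further NER genes, CUL4B, a scaffold of the DDB1 ubiquitin ligase, met the limits in BT549 at −1.26, and none did so in Hs578T or SUM149PT. At an unadjusted limma p under 0.05 over the 18 libraries there were 0 further BER genes and 1 further NER gene, beside 1660 of all 10475 probes.

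S phase genes were counted beside these because UNG is known to be cell cycle regulated. In SUM149PT 14 of 14 were lower, beside 4683 of all 10078 probes, with a median Log2 FC of −1.44. Of the 14, 4 met the limits for a lower level, beside 4.29% of all probes. Their summed normalized count ran from 6954 to 14327 after siASAP1 and from 13993 to 37934 after siCtrl. Most of each sum came from TYMS and MCM3, which read 18950 and 9259 of 34488 in SUM149PT siCtrl replicate 1. The sums therefore mainly follow these genes and not the whole list. In BT549 6 of 14 were lower, with sums of 12566 to 22169 after siASAP1 and 13692 to 18791 after siCtrl. In Hs578T 7 of 14 were lower, with sums of 11256 to 14696 after siASAP1 and 8607 to 23582 after siCtrl. The sums overlapped between groups in each line. In SUM149PT the overlap came from siCtrl replicate 2, the library with little ASAP1, at 13993, and the other siCtrl libraries, at 34488 and 37934, lay above all siASAP1 libraries. MCM6, a subunit of the replicative helicase, was the member of that list called over the 18 libraries, at −1.38 ± 0.22 (limma adjusted p = 0.00348). The part of proliferation in the member results was not tested.

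Between the siCtrl libraries of the 3 lines, which share controls across the pairs, the members differed in a few probes. BT549 against Hs578T gave 3 of 39 member probes at a limma adjusted p under 0.05, beside 13.9% of all probes. SUM149PT against BT549 gave 1 of 39, beside 18.2%, and SUM149PT against Hs578T gave 3 of 39, beside 20.2%. The shares of members called were 7.69%, 2.56% and 7.69%. Without SUM149PT siCtrl replicate 2 the counts became 8 (20.5%, beside 22.4% of all probes), 9 (23.1%, beside 34.2%) and 9 (23.1%, beside 31.7%). Without BT549 siCtrl replicate 2 the first and the second became 0, beside 9.09% and 13.2%. The first was 1 without BT549 siCtrl replicate 3 (beside 8.81%) or Hs578T siCtrl replicate 2 (beside 9.06%), and the second was 2 without SUM149PT siCtrl replicate 3 (beside 13.8%). Whether members and other probes differ in this share was not tested.

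NEIL1, a glycosylase for oxidized bases, read 107, 47.4 and 152 in SUM149PT controls, 19.96, 82.4 and 24.55 in BT549 controls and 0, 0 and 4.93 in Hs578T controls. The log2 difference was 5.68 ± 0.90 (SE) for SUM149PT minus Hs578T (limma adjusted p = 0.00133) and 4.29 ± 0.90 for BT549 minus Hs578T (limma adjusted p = 0.0101, and 0.0515 without BT549 siCtrl replicate 2). Hs578T was at or near 0, and the siASAP1 libraries there read 5.67, 0 and 0. NEIL1 passed the filter through the other lines, and the size of its difference is set by the pseudocount: with 0.1 in place of 1 it was 7.96 for SUM149PT minus Hs578T and 6.54 for BT549 minus Hs578T. OGG1, the glycosylase for oxidized guanine, was read with probe OGG1_4800 at 84.85, 105.6 and 96.1 in BT549 controls, 20.25, 8.97 and 5.91 in Hs578T controls and 12.9, 4.55 and 20.8 in SUM149PT controls. BT549 was higher than Hs578T by 3.08 ± 0.69 (limma adjusted p = 0.0142), and SUM149PT minus BT549 was −3.02 ± 0.69 (limma adjusted p = 0.0123). A second OGG1 probe, OGG1_12084, gave 1.37 ± 0.36 for BT549 minus Hs578T (limma adjusted p = 0.0323). These OGG1 calls were lost with BT549 siCtrl replicate 2 left out, at limma adjusted p of 0.0605, 0.051 and 0.0863. For BT549 minus Hs578T, OGG1_4800 was also lost without BT549 siCtrl replicate 3 (0.0584) or Hs578T siCtrl replicate 2 (0.0556). OGG1_12084 was also lost without BT549 siCtrl replicate 1 (0.0826) or 3 (0.101) and without Hs578T siCtrl replicate 1 (0.133) or 2 (0.102).

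ERCC1, the partner of the ERCC4 nuclease, read 596, 685 and 389 in Hs578T controls, 331, 224.5 and 184.5 in BT549 controls and 61.5, 100.2 and 134 in SUM149PT controls. SUM149PT minus Hs578T was −2.51 ± 0.43 (SE, limma adjusted p = 0.00201). APEX2 read 1573, 364 and 1619 in SUM149PT controls, 493, 431 and 557 in BT549 controls and 174, 122 and 184 in Hs578T controls. The difference for SUM149PT minus Hs578T was 2.63 ± 0.55 (limma adjusted p = 0.00682), with SUM149PT siCtrl replicate 2 well below the other two libraries. APEX1 and CETN2 were not called between any pair of control lines.

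**Figure D4:**
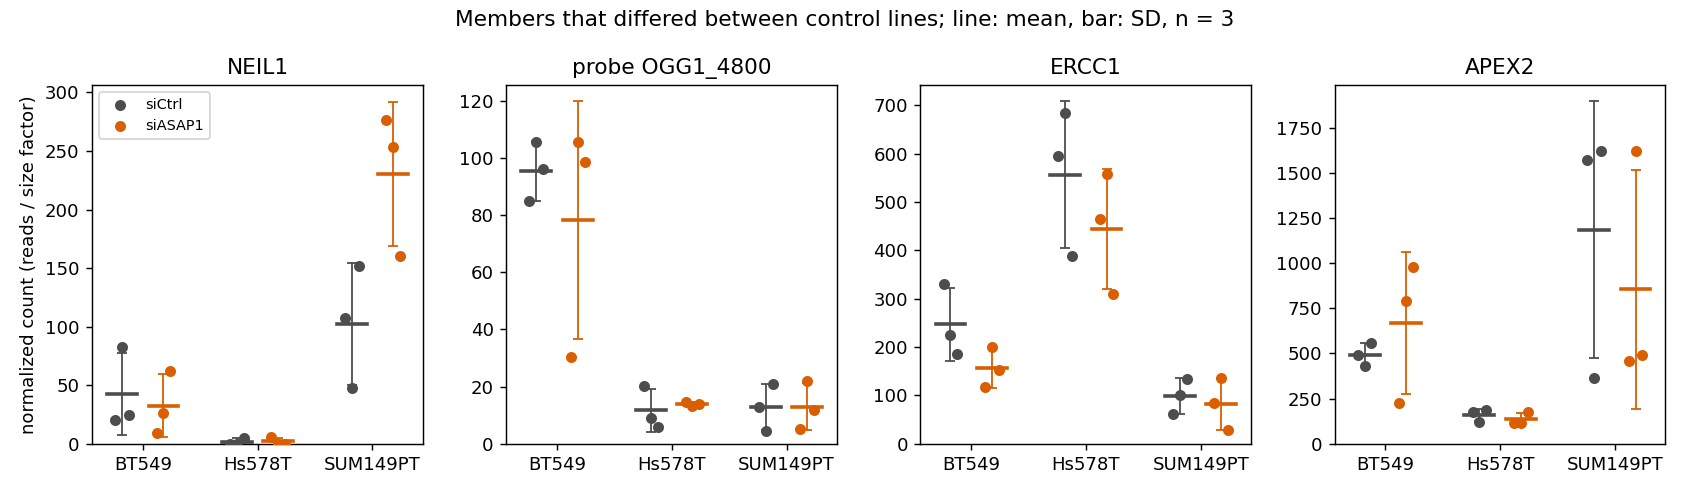
Normalized counts (vertical axis, linear) of NEIL1, probe OGG1_4800, ERCC1 and APEX2 in each of the 18 libraries, by cell line (horizontal axis) and siRNA (colour); horizontal bars are means and vertical bars SD of 3 libraries. NEIL1 is near 0 in Hs578T, probe OGG1_4800 is high in BT549 and ERCC1 in Hs578T, under both siRNAs.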

How the data were processed

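The 18 TempO-Seq libraries were grouped by line, siRNA and replicate from the labels. The authors divided reads per probe by a DESeq2 size factor and deposited log2(normalized count + 1) for 21111 probes. The processing notes name bcl2fastq, Bowtie and DESeq2, and the genome build is not given in the sources used here. All values (100%) came out as whole reads (tolerance 0.02), so depth was recovered. Members and lists were chosen with earlier results of these data known. Library values are given for ASAP1, APEX1, CETN2, every member meeting the limits, and the 4 members that differed most between control lines; others are summarised.

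R 4.3.3 and limma 3.58.1 (lmFit, then eBayes with an intensity trend) were run on log2 values of every probe whose normalized counts averaged 10 or more, with Benjamini-Hochberg adjustment over all probes. The main test was made on the deposited log2 values, and no count test was run on the recovered reads. The scripts were tested on simulated counts, where 8-fold changes were mostly recovered. In most comparisons, not only those within a line, 4-fold changes were recovered only in part. Alternatives were other scalings, filters, a pseudocount of 0.1, voom weights on recovered reads, summed probes, the replicate block and each library left out. RefSeq promoters matched 35 of 38 members. The result of a further BER gene within a line is not reported here.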

Additional observations from a re-analysis of the deposited data

How the results depend on the processing

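Over the 18 libraries, APEX1 and CETN2 kept a limma adjusted p under 0.05 under every alternative except that APEX1 had 0.0675 with the replicate block (Log2 FC −1.20), which left 1 member called in place of 3. With each library left out, APEX1 ranged from −1.29 to −1.10 and CETN2 from −1.90 to −1.69. The replicate block gave 3 members in SUM149PT in place of 7, and it changed no call of APEX1 or CETN2 within a line. The share of all probes called with the block is not given, so its counts show no change particular to the members. The replicate numbers did not pair the samples (correlations from −0.66 to 0.42), although in Hs578T each siASAP1 library matched its own number best. APEX1 in Hs578T missed an unadjusted limma p of 0.05 with total reads scaling (−0.55) and in a single fit of 18 libraries (−0.67). Calls by an adjusted p in the fits within a line gave 0 members in each line, and also 0 of all probes. The limma adjusted p in SUM149PT was 0.0147 for APEX1 and 0.00224 for CETN2 in that single fit, and 0.0296 for CETN2 in Hs578T with the replicate block.

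With each library left out, SUM149PT had 3 to 9 members meeting the limits, BT549 had 1 to 7 and Hs578T had 1 to 3. APEX1 ranged from −1.42 to −0.78 in BT549, and from −0.76 to −0.58 in Hs578T, where it missed p of 0.05 without siASAP1 replicate 1 or 2 or siCtrl replicate 1 or 3.

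Members differing between controls ranged from 0 to 8 for BT549 against Hs578T, 0 to 9 for SUM149PT against BT549 and 3 to 9 for SUM149PT against Hs578T. A minimum of 50 gave 1 and 0 for the first 2 comparisons, total reads scaling gave 3 for the second, and the siASAP1 libraries gave 7, 5 and 6 of 37. The share of all probes under these settings is not given, so these counts show no change particular to the members. The cause of these shifts was not tested. With no filter, 5 members met the limits in BT549 in place of 4, and the share of all probes is not given for that setting either. Members under the filter, such as XRCC1 and DDB1, were not tested in the reported fits.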
